A study of Mus musculus with 18 samples.

Results

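Prostaglandins are lipid mediators made from arachidonic acid. A cyclooxygenase (Ptgs1 or Ptgs2) converts arachidonic acid to prostaglandin H2. Terminal synthases turn that into prostaglandin E2 (Ptges), prostaglandin D2 (Ptgds) or prostacyclin (Ptgis), and the products act on G protein-coupled receptors. The enzyme 15-hydroxyprostaglandin dehydrogenase (Hpgd) inactivates prostaglandins such as prostaglandin E2. In the kidney, prostaglandin E2 acts through the receptors EP1 (Ptger1), EP3 (Ptger3) and EP4 (Ptger4) on tubular salt and water transport, renal blood flow and inflammation, and Ptgs2 is known to be induced when a ureter is blocked. The 9 genes Ptgs1, Ptgs2, Ptges, Ptgds, Ptgis, Ptger1, Ptger3, Ptger4 and Hpgd were followed here through every probe set that the array's annotation pairs with 1 of these symbols alone. That rule gave 14 of 22626 non-control probe sets, for 8 of the 9 genes and of 12393 genes named in all: 6 genes had 2 probe sets each, and Ptgis and Ptger1 had 1. Ptgs1 was not analysed here.

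The study compared kidneys of C57BL/6 mice that lacked TIMP2 (TIMP2-/-) or TIMP3 (TIMP3-/-), tissue inhibitors of metalloproteinases, with kidneys of wild-type (WT) mice, 3 days after surgery. The surgery was a sham operation or unilateral ureteral obstruction (UUO). In UUO the right proximal ureter was tied off, sham mice had the surgery without the ligature, and in both cases whole kidney from the operated side was used. The 6 groups were TIMP2-/- UUO, TIMP3-/- UUO, WT UUO, TIMP2-/- sham, TIMP3-/- sham and WT sham, each with 3 arrays that the labels call biological replicates. An array is named by its group and label number, such as WT UUO 2. Age, sex and the way the alleles were made are not given in the sources used here, and no agent other than the operation is named.

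The targeted genes followed the labels. Timp3 lay at 35.1 to 40.5 in TIMP3-/- UUO and 41.7 to 60.8 in TIMP3-/- sham, against 3171 to 9040 in the other groups. Timp2 lay at 742.2 to 897.1 in TIMP2-/- UUO against 3521 to 4689 in WT UUO, and at 570.8 to 680.9 in TIMP2-/- sham against 970.6 to 1475 in WT sham. The first principal component of all probe sets (64.8% of the variance) separated every UUO array from every sham array, and 3 arrays had been found to stand apart in earlier results of these data: WT UUO 2, with a hepatocyte marker mean of 12.57 on the log2 scale against 7.44 to 8.86 on the other arrays, and TIMP3-/- UUO 2 and WT sham 3, at -55.2 and -81.4 on the second component (16.6%). Results that rest on them are given with and without them. The arrays carried the defining transcripts of kidney, since the proximal tubule list averaged 11.14 to 12.84 on the log2 scale in UUO and 13.57 to 13.75 in sham arrays.

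The promoters below show the upstream sequence of the cyclooxygenase induced by injury and of 3 members that rose or fell in the averaged comparison. Each is a window of 300 bases from the RefSeq table of build GRCm38.p6, 250 before the annotated start and 50 after it, printed 5′ to 3′ on the gene's own strand, and 7 of the 9 genes matched that table. Capitals mark motifs found by a search of both strands for CACGTG (E-box), TGACG (CRE core), TGANTCA (AP-1), CCAAT and TATAAA.
Ptgs2, chr1:150099781-150100080, plus strand: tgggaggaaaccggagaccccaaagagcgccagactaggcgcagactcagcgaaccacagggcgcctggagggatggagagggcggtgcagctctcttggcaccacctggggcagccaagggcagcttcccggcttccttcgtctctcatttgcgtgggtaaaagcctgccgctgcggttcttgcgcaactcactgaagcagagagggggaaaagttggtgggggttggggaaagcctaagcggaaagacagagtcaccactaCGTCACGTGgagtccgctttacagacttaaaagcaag
Ptgds, chr2:25469700-25469999, minus strand: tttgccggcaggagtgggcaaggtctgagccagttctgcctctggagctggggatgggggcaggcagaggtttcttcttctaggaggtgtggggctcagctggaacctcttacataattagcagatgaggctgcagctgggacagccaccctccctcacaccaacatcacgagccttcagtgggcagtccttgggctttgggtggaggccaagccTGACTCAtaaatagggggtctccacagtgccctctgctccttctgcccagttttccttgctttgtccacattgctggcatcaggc
Ptger3, chr3:157566626-157566925, plus strand: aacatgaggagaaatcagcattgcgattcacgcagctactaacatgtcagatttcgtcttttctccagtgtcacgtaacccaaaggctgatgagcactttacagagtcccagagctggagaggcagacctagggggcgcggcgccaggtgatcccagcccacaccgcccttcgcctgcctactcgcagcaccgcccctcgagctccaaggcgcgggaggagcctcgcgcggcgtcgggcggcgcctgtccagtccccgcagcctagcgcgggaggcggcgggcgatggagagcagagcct
Ptger4, chr15:5244138-5244437, minus strand: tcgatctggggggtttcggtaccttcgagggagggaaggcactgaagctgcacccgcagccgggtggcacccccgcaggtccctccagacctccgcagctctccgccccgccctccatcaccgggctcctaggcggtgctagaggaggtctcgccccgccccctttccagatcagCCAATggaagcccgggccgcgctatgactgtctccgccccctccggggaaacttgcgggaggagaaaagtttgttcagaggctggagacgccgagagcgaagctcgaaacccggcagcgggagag
In Ptgs2 the E-box lay at bases 17 to 22 after the annotated start and overlapped the CRE core on the minus strand at bases 14 to 18. Ptgds held an AP-1 motif from 35 to 29 bases before the start, and Ptger4 a CCAAT box from 75 to 71 bases before it. Among 32851 windows of the same length, 7.15% held CACGTG, 20.8% TGACG, 7.81% TGANTCA, 37.4% CCAAT and 13.6% TATAAA. None of the 5 motifs was in the Ptger3 window. These matches describe letters in a window and were not set against the expression values.

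Averaged over the 3 genotypes, the prostaglandin D2 and prostacyclin synthases, the EP4 receptor, the degrading enzyme Hpgd and Ptgs2 rose after UUO, and the EP3 and EP1 receptors fell. Ptger4 rose by 2.00 ± 0.14 on the log2 scale (SE; a 4-fold change in intensity) and Ptger3 fell by 1.10 ± 0.14. With limma, 11 of the 14 probe sets passed at an adjusted p under 0.05 in the comparison averaged over genotypes, which is 78.6% against 69.4% of all probe sets. Of these 7 were higher and 4 lower, where 26.5% of all probe sets were called higher and 43% lower. The median log2 difference of the 14 was 0.50, against -0.13 over all probe sets. By genotype, 7 of 14 (50%) passed in TIMP2-/-, 5 higher and 2 lower, where 35% of all probe sets did, 14.1% higher and 20.9% lower. In TIMP3-/- 7 (50%) passed, 5 higher and 2 lower, where 62.5% of all did, 25% higher and 37.5% lower. In WT 6 (42.9%) passed, 5 higher and 1 lower, where 30.8% of all did, 14.7% higher and 16.1% lower. UUO and sham values did not overlap for 8 probe sets in TIMP2-/-, 9 in TIMP3-/- and 8 in WT, against 53.2%, 61.9% and 47.8% of all probe sets. Because the fit shares its spread, a probe set's SE is the same in each genotype.

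**Figure D1:**
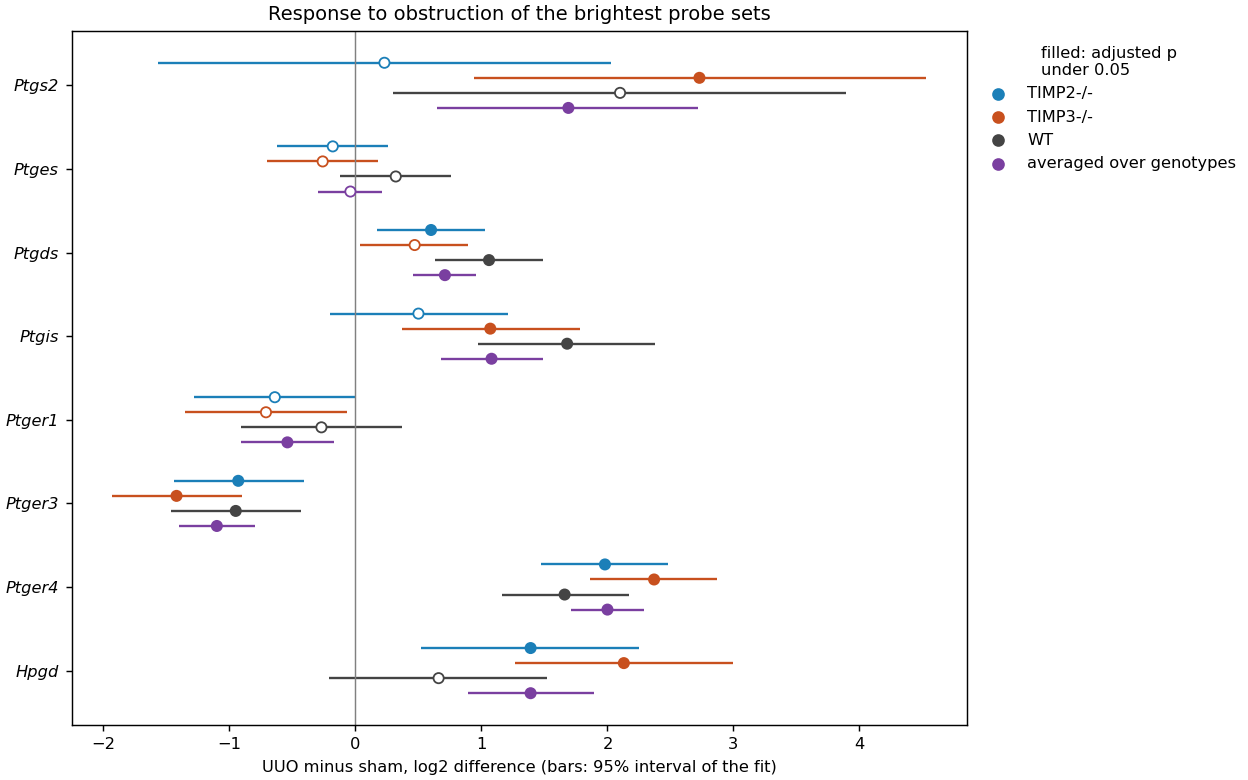
Log2 difference of UUO minus sham (horizontal axis, with 95% intervals) for the brighter probe set of each of the 8 measured genes, in TIMP2-/-, TIMP3-/- and WT and averaged over genotypes; filled points passed at an adjusted p under 0.05. Ptger4 passed to the right of 0 and Ptger3 to the left of 0 in all 3 genotypes, and the interval of Ptges spans 0 in each.

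Ptgs2, the inducible cyclooxygenase, was read by a brighter probe set (1417262_at) and a dimmer one (1417263_at), and was near the floor of the array in most kidneys. The brighter one was below its array's own 25th percentile on 15 of 18 arrays. In TIMP2-/- it read 20.8, 21.5 and 16.3 after UUO, against 16.2, 15.6 and 17.9 after sham. In TIMP3-/- it read 197.4, 201.5 and 25.5 after UUO, against 16, 13.2 and 16.3 after sham. In WT it read 25.9, 395.5 and 27.3 after UUO, against 15.4, 16.4 and 14.2 after sham. Thus 3 of 9 UUO arrays (TIMP3-/- UUO 1, TIMP3-/- UUO 2 and WT UUO 2) stood far above the rest, and no TIMP2-/- array did. The log2 difference of UUO minus sham was 2.73 ± 0.84 in TIMP3-/- (limma adjusted p = 0.0118), 0.23 ± 0.84 in TIMP2-/- (adjusted p = 0.845) and 2.10 ± 0.84 in WT (adjusted p = 0.0709).

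Leaving out arrays moved these calls. Without TIMP3-/- UUO 1 or TIMP3-/- UUO 2 the TIMP3-/- difference was 2.25 or 2.23 (limma adjusted p = 0.0528 or 0.0574). In WT a call was gained without WT UUO 1 or WT UUO 3 (adjusted p = 0.0381 or 0.0318), and without the 3 arrays that stand apart the WT difference was 0.75 (adjusted p = 0.431). Without those 3 arrays the TIMP3-/- difference was 2.23 and passed (adjusted p = 0.00559). The average over genotypes then was 1.07 (adjusted p = 0.0111), against 1.69 ± 0.49 (adjusted p = 0.00639) with all of them. The dimmer probe set was below the 25th percentile on every array; its highest value was 44.7 on WT UUO 2, and it passed in no UUO comparison. On TIMP3-/- UUO 1, TIMP3-/- UUO 2 and WT UUO 2 the fibroblast list averaged 12.88, 12.69 and 12.24 (log2 means of 9 markers), against 10.65 to 11.32 on the other UUO arrays, and the urothelium list 9.35, 8.68 and 9.35, against 7.59 to 8.45. The smooth muscle list averaged 11.85, 11.27 and 11.12 there, against 9.12 to 10.55, the adipocyte list 9.84, 9.77 and 9.78, against 7.44 to 9.09, and the macrophage and monocyte list 11.84, 11.32 and 11.36, against 10.35 to 11.02. The tubule lists were lowest on the same arrays: proximal tubule at 11.15, 11.14 and 11.26, against 11.58 to 12.84 on the other UUO arrays, thick ascending limb at 9.17, 9.88 and 9.62, against 10.03 to 10.95, and collecting duct at 8.4, 8.8 and 8.89, against 9.5 to 10.37. In the other lists the 3 arrays did not all lie on 1 side of the remaining UUO arrays. The neutrophil list averaged 7.27, 6.35 and 7.3, against 5.82 to 6.51, and the endothelial list 10.14, 9.58 and 9.99, against 9.35 to 9.72. The mast cell and platelet list averaged 8, 7.15 and 7.74, against 6.87 to 7.18. The hepatocyte list averaged 7.44, 7.45 and 12.57, against 7.72 to 8.86, and the adrenal list 6.04, 5.86 and 6.17, against 6.14 to 6.35. The part of these cell types in the Ptgs2 values was not tested, and in whole kidney fewer cells of a type and less RNA per cell cannot be told apart.

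**Figure D2:**
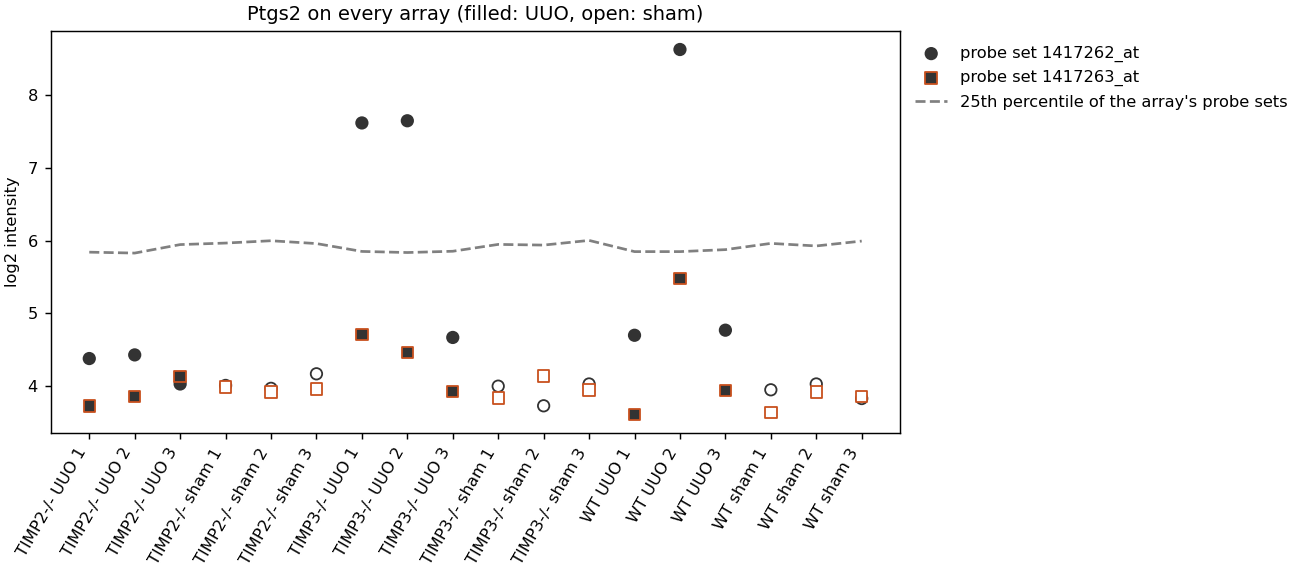
Log2 intensity (vertical axis) of the 2 Ptgs2 probe sets on each of the 18 arrays, UUO filled and sham open; the dashed line is each array's 25th percentile. On the brighter probe set TIMP3-/- UUO 1, TIMP3-/- UUO 2 and WT UUO 2 lie above the line, with linear intensities of 197.4, 201.5 and 395.5, and all other arrays lie below it at 13.2 to 27.3.

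Ptges, the inducible prostaglandin E synthase, did not pass on its brighter probe set (1449450_at). That brighter probe set read 507, 434.2 and 493.7 in TIMP2-/- UUO against 443.9, 538.2 and 666.1 in TIMP2-/- sham, 384, 278.5 and 428.3 in TIMP3-/- UUO against 385, 527 and 388.7 in TIMP3-/- sham, and 523.3, 397 and 603.7 in WT UUO against 446, 436.1 and 331.8 in WT sham. UUO and sham overlapped in each genotype, and the average difference was -0.04 ± 0.12 (95% interval -0.30 to 0.21, limma adjusted p = 0.765). The dimmer probe set (1449449_at) fell by 0.37 ± 0.12 on average (95% interval -0.62 to -0.12, limma adjusted p = 0.012). In TIMP3-/- it fell by 0.63 ± 0.21 (limma adjusted p = 0.0156). So only the dimmer probe set passed, and a difference between the 2 was not tested. The TIMP3-/- call was lost without TIMP3-/- UUO 2 (-0.50, limma adjusted p = 0.0745).

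Ptgds, the lipocalin-type prostaglandin D synthase, rose on both its probe sets (1423859_a_at, the brighter, and 1423860_at) averaged over genotypes. The brighter one read 2517, 2294 and 2908 in TIMP2-/- UUO, against 1672, 1635 and 1765 in TIMP2-/- sham. It read 1355, 1735 and 2530 in TIMP3-/- UUO, against 1187, 1335 and 1423 in TIMP3-/- sham, and the 2 groups overlapped there. It read 2989, 2108 and 2079 in WT UUO, against 961.4, 1285 and 1168 in WT sham. The rise was 1.06 ± 0.20 in WT (limma adjusted p = 0.00108) and 0.60 in TIMP2-/- (adjusted p = 0.0317), while TIMP3-/- gave 0.47 (adjusted p = 0.054). The average was 0.71 ± 0.12 (adjusted p = 7.79e-05), and 0.88 on the dimmer probe set (adjusted p = 5.75e-05). In TIMP2-/- the call was lost without any single one of its 6 arrays at differences of 0.51 to 0.68 (adjusted p 0.053 to 0.0804), and under median centring (0.45, adjusted p = 0.0977). The dimmer probe set (0.68, adjusted p = 0.0411) lost its call there without any except TIMP2-/- sham 3, under median centring (0.53, adjusted p = 0.097) and under repeated quantile normalization (0.60, adjusted p = 0.0741). In TIMP3-/- a call of the brighter probe set was gained without TIMP3-/- UUO 1 (adjusted p = 0.0112).

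Ptgis (1448816_at), prostacyclin synthase, an enzyme of vascular cells, rose in TIMP3-/- and WT. It read 554.7, 521.5 and 650.5 in TIMP2-/- UUO against 315.1, 408.6 and 514.4 in TIMP2-/- sham, groups that did not overlap although the difference of 0.50 did not pass (limma adjusted p = 0.242). Same-numbered TIMP2-/- arrays were also taken as pairs, which the labels do not state, in a fit chosen after seeing the data. With these 6 arrays alone the same difference then passed (limma adjusted p = 0.0205). With array weights the TIMP2-/- difference was 0.47 and passed (limma adjusted p = 0.0302). There 70.5% of all probe sets passed, against 35% with equal weights. Ptgis read 1429, 634.1 and 543 in TIMP3-/- UUO against 319.6, 463.7 and 357.5 in TIMP3-/- sham, and 874.8, 1088 and 722 in WT UUO against 359.7, 330.2 and 177.5 in WT sham, with no overlap in either genotype. The differences were 1.07 in TIMP3-/- (adjusted p = 0.0119) and 1.68 ± 0.33 in WT (adjusted p = 0.00149). Without the 3 arrays that stand apart they were 1.23 in TIMP3-/- (adjusted p = 0.00778) and 1.21 in WT (adjusted p = 0.0355). The TIMP3-/- value rests on TIMP3-/- UUO 1, without which it was 0.64 (adjusted p = 0.0687). Of 9 endothelial markers, 5 rose and 1 fell on average, and of 8 smooth muscle markers 7 rose. Over all probe sets 26.5% were called higher and 43% lower in the averaged comparison. The part of these cell types in the Ptgis values was not tested.

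**Figure D3:**
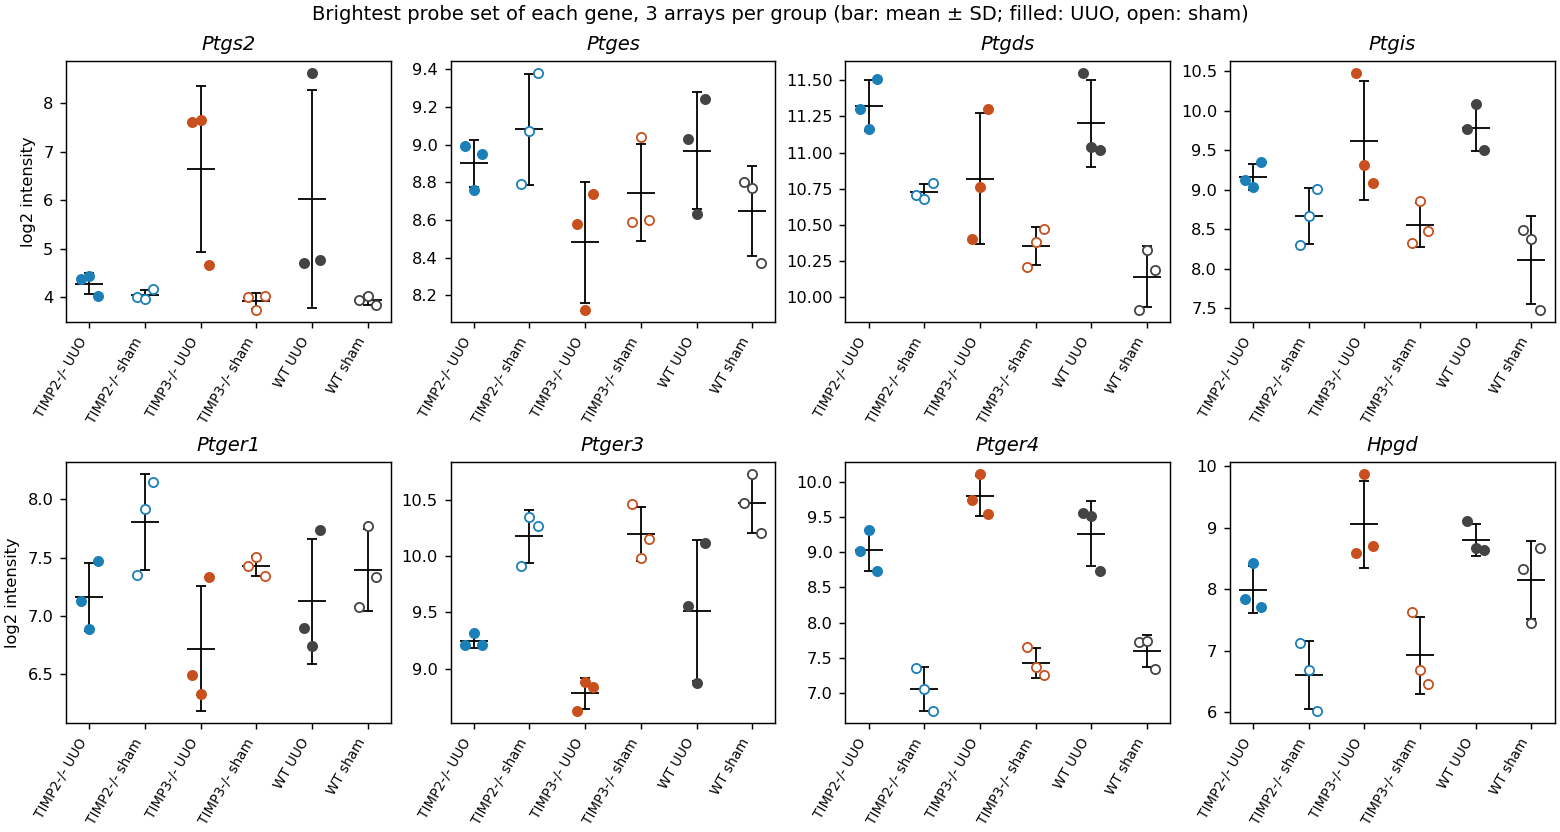
Log2 intensity of the brighter probe set of each of the 8 measured genes on every array, by group (UUO filled, sham open), with mean and SD of 3 arrays. Ptger4 separates UUO from sham in every genotype, Ptges does not in any, and Ptger3 is lower after UUO.

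Ptger4, the EP4 receptor, which raises cyclic AMP and is carried by macrophages as well as by tubule and glomerular cells, rose in all 3 genotypes. Its brighter probe set (1424208_at) read 518, 641.2 and 428.1 in TIMP2-/- UUO against 163.9, 133.5 and 106.8 in TIMP2-/- sham, 856, 1105 and 744.1 in TIMP3-/- UUO against 202.5, 165.8 and 152.5 in TIMP3-/- sham, and 751.2, 729.9 and 424.2 in WT UUO against 212.3, 213.6 and 162 in WT sham. No UUO array overlapped a sham array in any genotype. The rise was 1.98 in TIMP2-/-, 2.37 in TIMP3-/- and 1.66 ± 0.24 in WT (limma adjusted p = 3.42e-05, 3.11e-06 and 0.00011), and no alternative ended a call. A dimmer probe set (1421073_a_at), below the 25th percentile on 15 arrays, rose by 1.36 on average (adjusted p = 1.37e-06); its call in TIMP2-/- (0.77, adjusted p = 0.029) was lost without any single TIMP2-/- array except TIMP2-/- UUO 3. All 11 measured macrophage and monocyte markers rose too, their mean lying at 10.35 to 11.84 in UUO against 7.68 to 8.35 in sham arrays. Averaged over genotypes, 26.5% of all probe sets were called higher. The part of these cells in the Ptger4 values was not tested.

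Ptger3, the EP3 receptor, which lowers cyclic AMP and is abundant in the thick ascending limb and collecting duct, fell in all 3 genotypes. Its brighter probe set (1450344_a_at) read 594.1, 639.6 and 593.7 in TIMP2-/- UUO against 962.6, 1306 and 1231 in TIMP2-/- sham, 393.3, 470.9 and 459.4 in TIMP3-/- UUO against 1413, 1008 and 1140 in TIMP3-/- sham, and 757, 468.7 and 1116 in WT UUO against 1421, 1698 and 1181 in WT sham. No groups overlapped within a genotype. The fall was 0.93 in TIMP2-/-, 1.42 in TIMP3-/- and 0.95 ± 0.24 in WT (limma adjusted p = 0.00997, 0.000222 and 0.00821), and the WT call of that probe set was lost when only the arrays compared were fitted (adjusted p = 0.0707). A second probe set (1425251_at), below the 25th percentile on every array at 13.9 to 26.4, fell by 0.37 on average (adjusted p = 0.000714) and by 0.48 in TIMP2-/- (adjusted p = 0.0155), where leaving out TIMP2-/- UUO 1, TIMP2-/- UUO 2, TIMP2-/- sham 2 or TIMP2-/- sham 3 ended the call (adjusted p 0.0535 to 0.0789). Repeated quantile normalization ended it too, at -0.31 (adjusted p = 0.0716). Of 7 thick ascending limb and macula densa markers 6 fell, with list means of 9.17 to 10.95 in UUO against 11.16 to 11.69 in sham. Of 10 collecting duct markers 7 fell. Averaged over genotypes, 43% of all probe sets were called lower. The part of these cell types in the Ptger3 values was not tested.

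Ptger1 (1450491_at), the EP1 receptor, which signals through calcium, passed in fewer comparisons. It read 139.8, 118.5 and 177 in TIMP2-/- UUO against 162.7, 241.5 and 283.7 in TIMP2-/- sham, 90, 80.3 and 160.5 in TIMP3-/- UUO against 172.8, 181.7 and 161.8 in TIMP3-/- sham, and 119.1, 106.6 and 213.3 in WT UUO against 135.5, 217.8 and 160.5 in WT sham. The groups were free of overlap in TIMP3-/- alone. In the fit of all 18 arrays with equal weights and no pairing it passed averaged over genotypes, where it fell by 0.54 ± 0.17 (limma adjusted p = 0.0118), and that call was lost without the 3 arrays that stand apart (-0.42, adjusted p = 0.0623). In TIMP2-/- the difference of -0.64 did not pass (adjusted p = 0.104). With array weights the TIMP2-/- difference was -0.76 and passed (limma adjusted p = 0.00133). There 70.5% of all probe sets passed, against 35% with equal weights. Ptger1 also passed in a limma fit of the TIMP2-/- arrays alone with same-numbered arrays as pairs (adjusted p = 0.0189). That pairing was chosen after seeing the data and is not stated by the labels. In TIMP3-/- the difference of -0.71 missed the threshold (adjusted p = 0.0503). It passed there under 6 other settings: the brightest probe set per gene (adjusted p = 0.0488), dim probe sets left out (adjusted p = 0.0485), repeated quantile normalization (-0.81, adjusted p = 0.0317), median centring (-0.94, adjusted p = 0.0157), array weights (adjusted p = 0.0129) and the replicate block (adjusted p = 0.0258). With array weights 73.5% of all probe sets passed in TIMP3-/-, against 62.5% with equal weights. Without TIMP3-/- UUO 3 the Ptger1 difference was -1.02 and passed as well (limma adjusted p = 0.00813). Without the 3 arrays that stand apart it was -0.52 and did not pass (adjusted p = 0.189).

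Hpgd, which oxidizes prostaglandins to inactive 15-keto forms, rose in the 2 knockouts. Its brighter probe set (1419905_s_at) read 229.8, 342.2 and 209.4 in TIMP2-/- UUO against 139.5, 102.4 and 64.5 in TIMP2-/- sham, 383, 937.9 and 414.6 in TIMP3-/- UUO against 197.6, 102.7 and 87.1 in TIMP3-/- sham, and 550.5, 408.4 and 396.2 in WT UUO against 319.7, 174.2 and 408.5 in WT sham. UUO and sham overlapped in WT only. The difference was 1.39 in TIMP2-/- (limma adjusted p = 0.0176), 2.13 in TIMP3-/- (adjusted p = 0.000523) and 0.66 ± 0.41 in WT (adjusted p = 0.232), and 1.39 ± 0.23 averaged (adjusted p = 0.000105). With array weights the WT difference was 1.14 and passed (limma adjusted p = 0.0032), where 52.6% of all probe sets passed, against 30.8% with equal weights. WT UUO 1, 2 and 3 then had weights of 5.71, 0.38 and 0.524, and WT sham 1, 2 and 3 had 1.24, 1.71 and 0.328. The TIMP2-/- call was lost without TIMP2-/- UUO 2 or TIMP2-/- sham 3 (adjusted p = 0.0859 or 0.0861), and without the 3 arrays that stand apart the TIMP3-/- difference was 1.72 (adjusted p = 0.00331) and the WT difference 0.98 (adjusted p = 0.138). A second probe set (1419906_at), below the 25th percentile on every array, read 31.6 to 52.9 and did not pass in any of these comparisons. Among sham arrays, the 4 with the lowest second principal component (-81.4 to -27) read 174.2 to 408.5 and included all 3 WT sham arrays, and the other 5 read 64.5 to 139.5; TIMP3-/- UUO 2, at -55.2, read 937.9. What the second component stands for was not tested.

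**Figure D4:**
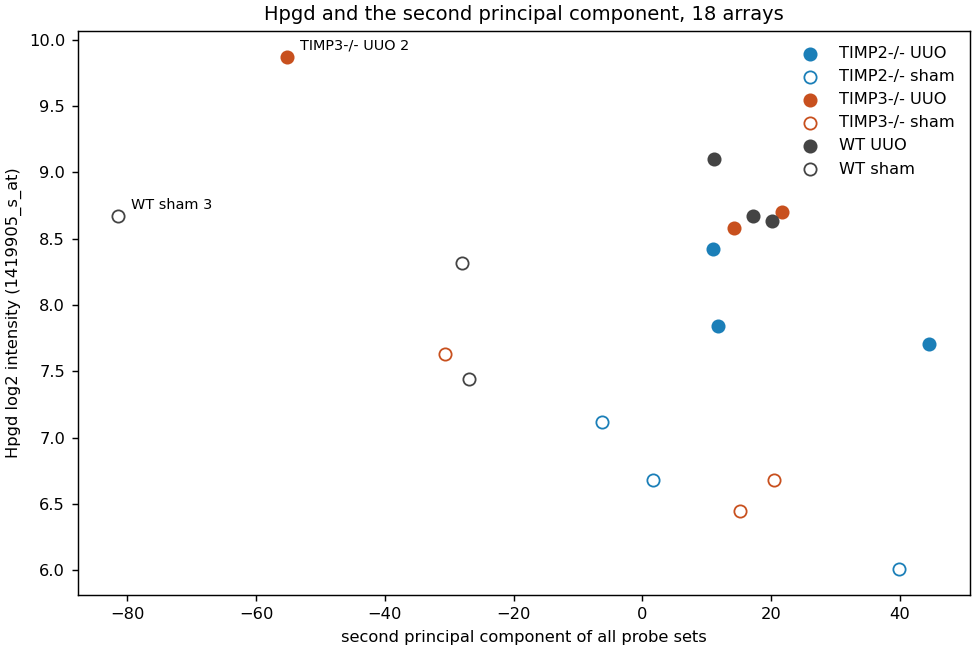
Log2 intensity of the brighter Hpgd probe set (vertical axis) against the score of each array on the second principal component of all probe sets (horizontal axis), by group. Sham arrays at the left, such as WT sham 3, lie higher than sham arrays at the right. Of the UUO arrays only TIMP3-/- UUO 2 lies at the left, and it is the highest of them.

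Genotypes were then set against each other. After UUO none of the 14 probe sets passed in TIMP2-/- against WT (0.0486% of all did) or in TIMP3-/- against WT (0.707%), where 0 and 4 had an unadjusted limma p under 0.05, against 3.4% and 20.5% of all probe sets. TIMP2-/- against TIMP3-/- gave 1 of 14 (7.14%, against 7.06% of all), with 6 at an unadjusted p under 0.05, against 30.2% of all. In that 1, the dimmer Ptger4 probe set read 37.3, 41.7 and 26.9 in TIMP2-/- UUO against 75.9, 77.5 and 49 in TIMP3-/- UUO, a difference of -0.93 ± 0.25 (adjusted p = 0.041). The brighter probe set gave -0.77 (adjusted p = 0.0593), with no overlap, and the call was lost without any single array of these 2 groups except TIMP3-/- UUO 3. Ptgs2 read 16.3 to 21.5 in TIMP2-/- UUO against 25.5 to 201.5 in TIMP3-/- UUO, but the difference of -2.37 ± 0.84 (95% interval -4.17 to -0.58) did not pass (adjusted p = 0.0875). After sham none passed in TIMP2-/- against WT (0.0221% of all did), TIMP3-/- against WT (0.0442%) or TIMP2-/- against TIMP3-/- (0.0751%), with 4, 1 and 0 at an unadjusted p under 0.05, against 25.8%, 10.6% and 3.91% of all probe sets.

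Arrays of the 2 genotypes did not overlap for 3 of the 14 in TIMP2-/- against WT after UUO, 0 in TIMP3-/- against WT and 7 in TIMP2-/- against TIMP3-/-, where 8.62%, 15.1% and 29.6% of all probe sets did not. After sham these were 4, 1 and 2, against 41.5%, 14.6% and 12.6%. For example, Hpgd read 64.5 to 139.5 in TIMP2-/- sham against 174.2 to 408.5 in WT sham (-1.54, limma adjusted p = 0.143), and Ptgds read 1635 to 1765 against 961.4 to 1285 (0.58, adjusted p = 0.145). The difference of UUO responses passed for no probe set in any of the 3 pairs of genotypes, where 0% of all probe sets passed. At an unadjusted p under 0.05 there were 2 of the 14 for TIMP2-/- against WT, 2 for TIMP3-/- against WT and 1 for TIMP2-/- against TIMP3-/-, against 8.91%, 25.9% and 10% of all probe sets. The Hpgd response of TIMP3-/- minus that of WT was 1.48 ± 0.58 (95% interval 0.25 to 2.70, adjusted p = 0.167), and the Ptgis response of TIMP2-/- minus that of WT was -1.17 ± 0.47 (adjusted p = 0.551). So a call in 1 genotype and none in another, as for Ptgs2 or Hpgd, was not shown to differ between them. These comparisons share arrays: each UUO and sham group enters several of them.

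In the order of group means, neighbouring groups overlapped at most steps. For Ptger4 the order was TIMP3-/- UUO, WT UUO, TIMP2-/- UUO, WT sham, TIMP3-/- sham and TIMP2-/- sham, and only the step between TIMP2-/- UUO and WT sham was free of overlap. For Ptgs2 the free step was between WT UUO and TIMP2-/- UUO, for Hpgd between TIMP2-/- UUO and TIMP3-/- sham, and for Ptgis between TIMP2-/- UUO and TIMP2-/- sham. The Ptgs2 step lay between 25.9 and 21.5, below the 25th percentile of every array (56.9 to 64.2). For the brighter Ptger3 probe set the free step was between TIMP2-/- UUO and TIMP3-/- UUO, and TIMP2-/- sham overlapped WT UUO. For the brighter Ptgds probe set it was between TIMP2-/- sham and TIMP3-/- sham. How many of all probe sets have such steps was not counted. The brighter Ptges probe set and Ptger1 had no free step.

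Other genes of the pathway were counted on 1 probe set each, the brightest, in the comparison averaged over genotypes. There 26.5% of all probe sets were called higher and 43% lower. These shares are the background for the counts here and in the next paragraph. Of 15 measured genes of arachidonate release, 3 rose and 9 fell (median -0.36). Pla2g4a, cytosolic phospholipase A2, which releases arachidonic acid, rose by 1.99 ± 0.23 (limma adjusted p = 2.5e-06), with means of 378 and 90 in TIMP2-/- UUO and sham, 650 and 117 in TIMP3-/-, and 401 and 147 in WT. Pla2g15, a lysosomal phospholipase, rose by 1.12, while Faah, which hydrolyses fatty acid amides, fell by 1.19 and Pla2g6 by 0.96. Of 9 other prostanoid synthases and reductases 3 rose and 3 fell: Akr1b8 rose by 3.46 ± 0.16 (adjusted p = 3.56e-10), Cbr2 by 1.5 and Cbr3 by 1.43, and Ptges2, a second prostaglandin E synthase, fell by 1.04.

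Of 7 other prostanoid receptors 2 rose and 4 fell. Ptgir, the prostacyclin receptor, rose by 0.92 and Ptger2, the EP2 receptor, by 0.63, while Ptgfr, the prostaglandin F receptor, fell by 0.83 and Ptgdr2, a prostaglandin D2 receptor, by 0.75. Of 7 transport and breakdown genes 1 rose and 4 fell (median -0.69). Slco2a1 was the 1 that rose, by 0.58 ± 0.09 (limma adjusted p = 3.28e-05). The organic anion transporters Slc22a8 and Slc22a6 fell by 3.25 ± 0.36 and 2.38 ± 0.26 (limma adjusted p = 1.64e-06 and 1.33e-06). Slco3a1 fell by 0.98 and Ptgr2, a prostaglandin reductase, by 0.69. All 10 measured proximal tubule markers fell as well, Slc22a6 among them, and their part was not tested. Of 14 genes of the leukotriene and lipoxygenase branch 5 rose and 6 fell: Alox5ap, the 5-lipoxygenase-activating protein, rose by 2.57, Cysltr1 by 0.95 and Ltc4s by 0.65, and Dpep1, a dipeptidase of the proximal tubule, fell by 1.58.

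**Figure D5:**
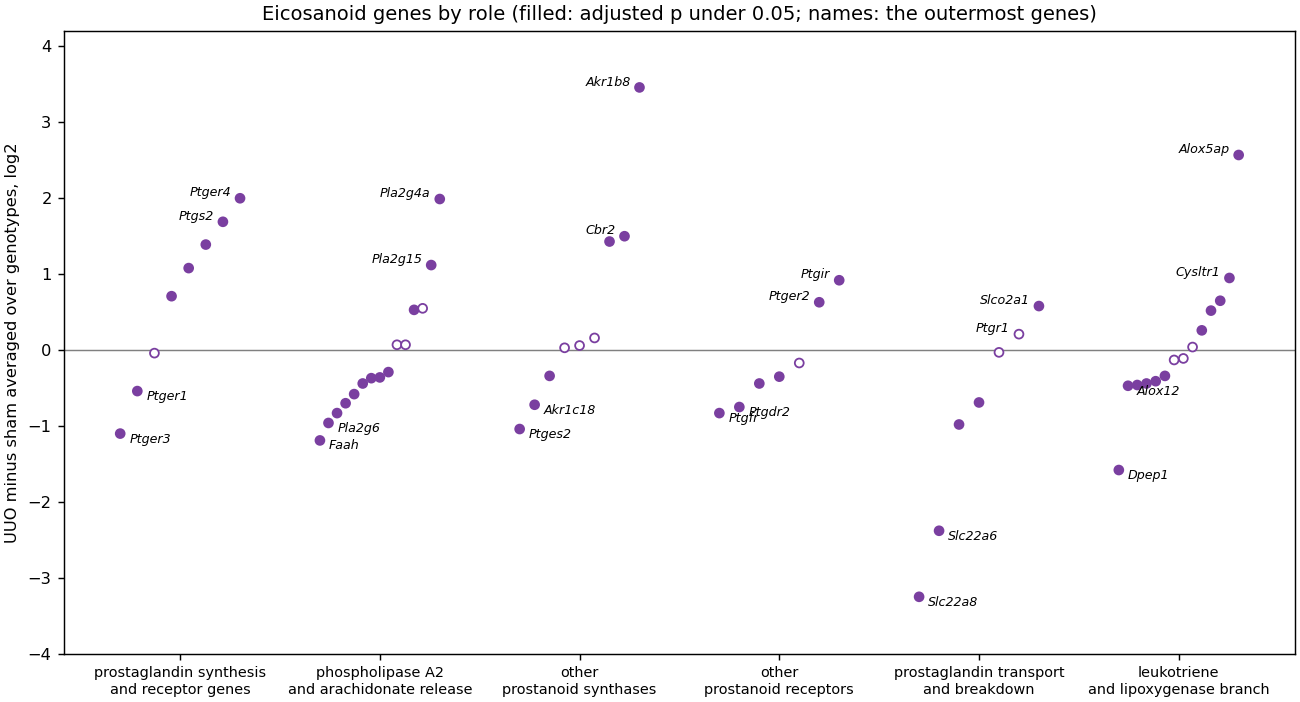
Log2 difference of UUO minus sham averaged over genotypes (vertical axis) for the 8 measured genes and for the measured genes of 5 other pathway lists; filled points passed at an adjusted p under 0.05. Akr1b8 and Alox5ap are the highest of the named genes, and Slc22a8 and Slc22a6 the lowest.

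The genes whose log2 profile over the 18 arrays was nearest to a member's, each centred on its own mean, were found by root mean square difference. Ptger4 was nearest to Marcks (0.17) and Klf4 (0.18), with a spread of its own of 1.07. Ptger3 was nearest to Slc25a13 (0.21) and Casr (0.23), with a spread of 0.65, and Ptgis to Pla2g15 (0.15) and P3h4 (0.18), with 0.70. Ptgs2 was nearest to Clec4d (0.43) and Il6 (0.46), with 1.45, and Hpgd to Lsm8 (0.31) and Snrpb2 (0.32), with 1.01. Ptgds was nearest to Stc2 (0.19) and Cdh3 (0.20), with 0.47, and Ptger1 to Epor and 1110008P14Rik (0.19 each), with 0.47. All profiles share the same arrays and the UUO and sham groups, so these distances are a description.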

How the data were processed

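Total RNA of whole kidney was hybridized to Affymetrix Mouse430A_2 arrays. The deposited values were linear intensity, 1 per probe set and array, and RMA is credited per the submitters' processing notes; its version, and the step from RMA's usual log2 output to linear values, are not given in the sources used here. Array medians lay at 201.8 to 247.9, and the number of arrays, not a read depth, limits the precision.

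Intensities were converted to log2 with no pseudocount. Control probe sets (64 of 22690) were left out. One limma 3.58.1 model (R 4.3.3) with 6 group means was fitted to all 22626 others, with 12 residual and 3.28 prior degrees of freedom. P-values were adjusted by Benjamini-Hochberg within each of 13 comparisons, and a probe set passed at an adjusted p under 0.05. The model code was tried on simulated data with independent noise in each probe set and array. That cannot show how the fit fares with deviations that an array shares across probe sets. Of the probe sets, 20380 had 1 gene symbol in the platform annotation, 691 several and 1555 none. Ptgs1 was not analysed here. With 3 arrays a group, exact permutation of 2 groups would stop at p = 0.1. Permutation was not used, also not for the averaged comparison, where that limit is lower.

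Named were all members, up to 4 genes per pathway list with the largest change that passed, and the 2 nearest genes per member. Slco2a1 was named in addition, as the only gene of its list that rose in the averaged comparison. The members and lists were chosen with earlier results of these data known. Same-numbered UUO and sham arrays deviated together in TIMP2-/- (correlations 0.284 to 0.564) but not in WT (-0.316 to 0.03) or TIMP3-/- (-0.548 to 0.499). The labels number the arrays and state no pairs. TIMP2-/- UUO 2 correlated more with TIMP2-/- sham 1 (0.344) than with TIMP2-/- sham 2 (0.284), so the numbers do not establish pairs. A fit with same-numbered TIMP2-/- arrays as pairs was therefore an alternative only. Alternatives were the brightest probe set per gene, a filter on dim probe sets, repeated quantile normalization, median centring, a trended fit, only the arrays compared, array weights, a replicate block and leaving out arrays.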

Additional observations from a re-analysis of the deposited data

How the results depend on the processing

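Counts of members that passed are of 14 probe sets unless stated. With the brightest probe set per gene, 4 of 8 passed in TIMP2-/- UUO against sham (37.9% of all genes) and 7 of 8 averaged over genotypes (70.8%). In TIMP2-/- UUO against TIMP3-/- UUO 0 of 8 then passed (8.08%). That last comparison also gave 0 of 9 without dim probe sets (10.7% of all fitted) and 0 with only the arrays compared (0.115%). It gave 0 without the 3 arrays that stand apart (4.31%) and 2 with the replicate block (9.65%), against 1 in the fit used above (7.06%). TIMP3-/- UUO against WT UUO gave 1 without those 3 arrays (3.59% of all probe sets). Array weights, with the share of all probe sets in brackets, gave 3 in TIMP2-/- UUO against WT UUO (8.08%), 8 in TIMP3-/- UUO against WT UUO (27.6%), 8 in TIMP2-/- UUO against TIMP3-/- UUO (25.4%), 4 in TIMP2-/- sham against WT sham (12.2%) and 1 in TIMP3-/- sham against WT sham (10.7%). They gave 3 in the UUO response of TIMP2-/- minus WT (7.81%), 3 in TIMP3-/- minus WT (32.1%) and 3 in TIMP2-/- minus TIMP3-/- (14.3%). The weights ran from 0.228 for TIMP3-/- UUO 2 to 5.71 for WT UUO 1. The cause of these counts was not tested. Leaving out 1 array gave 2 to 5 in TIMP2-/- UUO against sham (17.8% to 42.6% of all probe sets), 6 to 9 in TIMP3-/- (48.8% to 65.6%), 6 to 7 in WT (19.5% to 32.7%), 11 to 12 averaged (65.4% to 71.7%), 0 to 3 in TIMP3-/- UUO against WT UUO (0.155% to 11%), 0 to 5 in TIMP2-/- UUO against TIMP3-/- UUO (0.495% to 24.6%) and 0 in the other comparisons. The average Ptges difference, -0.04, was 0.03 without the 3 arrays and -0.09 to 0.02 leaving out single arrays.

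Single values were also compared under all settings other than leaving out 1 array, the replicate block in the TIMP2-/- arrays alone included. Of these, 352 kept direction and side of the threshold, 8 lost a call, 11 gained one and 1 reversed. Leaving out single arrays, these were 369, 31, 4 and 4. With the replicate block in the TIMP2-/- arrays alone, an alternative chosen after seeing the data, 10 of 14 passed in TIMP2-/- (52.3% of all probe sets, against 35% without the block), Ptgis (limma adjusted p = 0.0205) and Ptger1 (adjusted p = 0.0189) among them. In all 18 arrays the block gave 7 in TIMP2-/-, 9 in TIMP3-/- and 6 in WT, where 37.7%, 63.1% and 33.3% of all probe sets passed. Centring arrays on their median gave a median of all probe sets of -0.298 in the averaged comparison, against -0.129 otherwise, and the share of calls that were higher was 26.6%, against 38.1% otherwise. In TIMP2-/-, TIMP3-/- and WT that share was 25.5%, 27.2% and 32.2% after centring, against 40.2%, 40% and 47.7% otherwise. Arrays give no counts, and low signal limits Ptgs2, the dimmer Ptger3, Ptger4 and Hpgd probe sets.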
